A study of Homo sapiens with 6 samples.

Results

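The 10 genes described here carry or report the output of the Hippo pathway: the coactivators YAP1 and WWTR1 (which encodes TAZ), the DNA-binding factors TEAD1 and TEAD4, and 6 genes widely used as readouts of these factors, CCN1 (CYR61), CCN2 (CTGF), ANKRD1, AMOTL2, LATS2 and AXL. They were taken by name from a table of 60605 genes, and all 10 passed the filter on low counts among 14748 genes tested. In this pathway the kinases LATS1 and LATS2 phosphorylate YAP1 and TAZ, which holds them in the cytoplasm. Unphosphorylated YAP1 and TAZ enter the nucleus and act through TEAD factors, since the coactivators do not bind DNA themselves. Cell density, matrix stiffness and actin tension set the activity of the coactivators through the protein and its location, which RNA levels do not show. AMOTL2 and LATS2 are targets whose products restrain YAP1, so they close a feedback loop.

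RNA was measured in MDA-MB-231 cells, an established triple-negative breast cancer line, that carried a control hairpin (shControl, 3 libraries) or a hairpin against PUS1 (shPUS1, 3 libraries). PUS1 encodes a pseudouridine synthase that modifies tRNA and other RNAs. The study's methods describe lentiviral delivery of the hairpins with puromycin selection in both arms. The deposited labels give the knockdown a number, the same for all shPUS1 libraries, but the sources used here do not say which of the study's hairpins it stands for. Nor do they say whether the replicates of an arm were selected separately, so p-values measure the spread between these cultures only. The comparison asks which transcripts differ once PUS1 is lowered.

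Library totals lay between 14241505 and 19625998 estimated counts. PUS1 itself stood at 14.4, 27.4 and 12.1 CPM (counts scaled to the library total, here adjusted by the trimmed mean of M values, TMM) in shControl replicates 1 to 3 and at 6.56, 5.47 and 5.36 CPM in shPUS1, with a log2 fold change of -1.62 (SE 0.32, edgeR quasi-likelihood test, adjusted p = 0.0462). It stayed negative, from -1.84 to -1.001, over 15 alternatives, of which 8 kept the call. The call was lost without shControl replicate 1 or any single shPUS1 library (adjusted p up to 0.253), with the replicate block (0.0969) and with limma on log2(FPKM + 1) (0.0593) or log2(FPKM + 0.1) (0.0570). Over all genes, 11 were called without shControl replicate 1 and 11, 6 and 0 without shPUS1 replicates 1, 2 and 3. The replicate block called 18 and limma 345 and 269, against 380 in the main fit. With shControl replicate 2 left out the value was -1.19 (edgeR adjusted p = 0.00311). The mesenchymal marker VIM was at 399.9 to 498 FPKM in shControl and at 286 to 339 FPKM in shPUS1 (log2 fold change -0.50, edgeR adjusted p = 0.0873). In the same order, CD44 was at 88.4 to 99.6 and 74.6 to 76.2 FPKM (-0.29, edgeR adjusted p = 0.169). ZEB1 was at 8.14 to 10.63 and 10.56 to 12.18 FPKM (0.30, edgeR adjusted p = 0.209). The hormone receptors ESR1 and PGR were at no more than 0.04 FPKM. The epithelial markers CDH1 and EPCAM were low, at up to 0.18 and at 2.21 to 3.12 FPKM. The leukocyte markers PTPRC and CD3E were at or below 0.02 FPKM. The summed level of 6 markers of leukocytes, endothelium and fibroblasts was 2.26 to 8.93 FPKM in shControl and 10.4 to 12.5 FPKM in shPUS1, mostly from PDGFRB and COL1A1. These genes were lowest in shControl replicate 2, at 1.32 and 0.73 FPKM. Neither was called (edgeR adjusted p = 0.195 and 0.110). The part of the summed level in the results was not tested. In bulk RNA, fewer cells of a type and less RNA per cell cannot be told apart. The shControl replicate 2 stood apart, since its log2 CPM correlated with those of the other libraries across genes at 0.936 to 0.952, against 0.981 for shControl replicates 1 and 3. Fold changes of the 10 genes, of PUS1 and of the called genes of each list are therefore also given without it.

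Promoter windows were available for 7 of the 10 genes in RefSeq sequence of build GRCh38.p14. CCN1, TEAD1 and TEAD4 had none and were not searched. They were searched on both strands for GGAATG, the core that TEAD factors bind, over the 250 bases before the start. Of 35116 such windows 11.9% held it, 0.94% held at least 2 copies and 0.0826% held at least 3. The window of CCN2 held 3 copies, whose first bases lay at -169, -104 and -95 relative to the start. That of ANKRD1 held 2, at -220 and -128, with 1 match to the AP-1 motif TGANTCA at -195. The AP-1 motif occurred in 6.57% of windows. The window of YAP1 held 1 copy of GGAATG, at -162. LATS2, WWTR1 and the upstream starts of AMOTL2 and AXL held none, and a further start of AMOTL2 and of AXL held 1 each. The CArG box, the element bound by serum response factor, was found in 1.16% of all windows and in none of these. A match says only that the letters are there. The sequences with the motif are printed 5′ to 3′ on the strand of the gene, with each GGAATG in capitals, because CCN2 and ANKRD1 are the 2 targets whose windows hold more than a single copy and YAP1 is the coactivator itself. Bases inside an exon of the same gene or an untranslated region of any gene in GENCODE release 29 were left out. That removed 1 base for CCN2 and 189 for ANKRD1, the latter with its second copy and the last base of its AP-1 match. The CCN2 stretch is chr6:131951374-131951622, that of ANKRD1 is chr10:90921277-90921337, both on the minus strand, and that of YAP1 is chr11:102110197-102110446 on the plus strand.
CCN2: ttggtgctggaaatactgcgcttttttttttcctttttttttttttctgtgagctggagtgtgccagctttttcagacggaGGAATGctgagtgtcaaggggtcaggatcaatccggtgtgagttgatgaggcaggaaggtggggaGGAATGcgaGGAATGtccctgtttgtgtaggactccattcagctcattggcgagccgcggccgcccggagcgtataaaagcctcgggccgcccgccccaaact
ANKRD1: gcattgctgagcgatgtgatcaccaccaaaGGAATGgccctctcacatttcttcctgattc
YAP1: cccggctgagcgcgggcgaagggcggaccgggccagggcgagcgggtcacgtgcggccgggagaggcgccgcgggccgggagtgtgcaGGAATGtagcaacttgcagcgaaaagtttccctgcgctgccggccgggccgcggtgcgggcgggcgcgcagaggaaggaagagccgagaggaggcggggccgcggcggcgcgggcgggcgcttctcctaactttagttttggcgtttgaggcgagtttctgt

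Per length, the readout genes spanned a wide range in these cells. In shControl, CCN1 stood at 877 FPKM ± 400.4 (SD, n = 3), followed by CCN2 at 316 ± 160, ANKRD1 at 295 ± 168 and AXL at 223 ± 27.4. The coactivator YAP1 followed at 45.1 ± 4.11 FPKM, then TEAD1 at 39.1 ± 8.69, AMOTL2 at 37.3 ± 6.45, WWTR1 at 13.5 ± 1.62, LATS2 at 12.3 ± 3.31 and TEAD4 at 9.15 ± 3.60. In that order, the ranges of neighbours over the 3 libraries overlapped for every pair except AXL with YAP1 and AMOTL2 with WWTR1. In shPUS1 the order was CCN1 at 1378 FPKM ± 24.6, ANKRD1 at 470 ± 61.6, CCN2 at 361 ± 13.9, AXL at 145 ± 11.1, TEAD1 at 55.9 ± 8.06, YAP1 at 47.8 ± 4.10, AMOTL2 at 39.4 ± 1.37, LATS2 at 19.7 ± 2.12, WWTR1 at 12.8 ± 0.60 and TEAD4 at 6.78 ± 0.62. There, only the neighbours TEAD1 and YAP1 overlapped. CCN1 alone took 0.155% of all counts in shControl replicate 2, 0.431% and 0.387% in shControl replicates 1 and 3, and 0.499% to 0.516% in shPUS1.

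**Figure D1:**
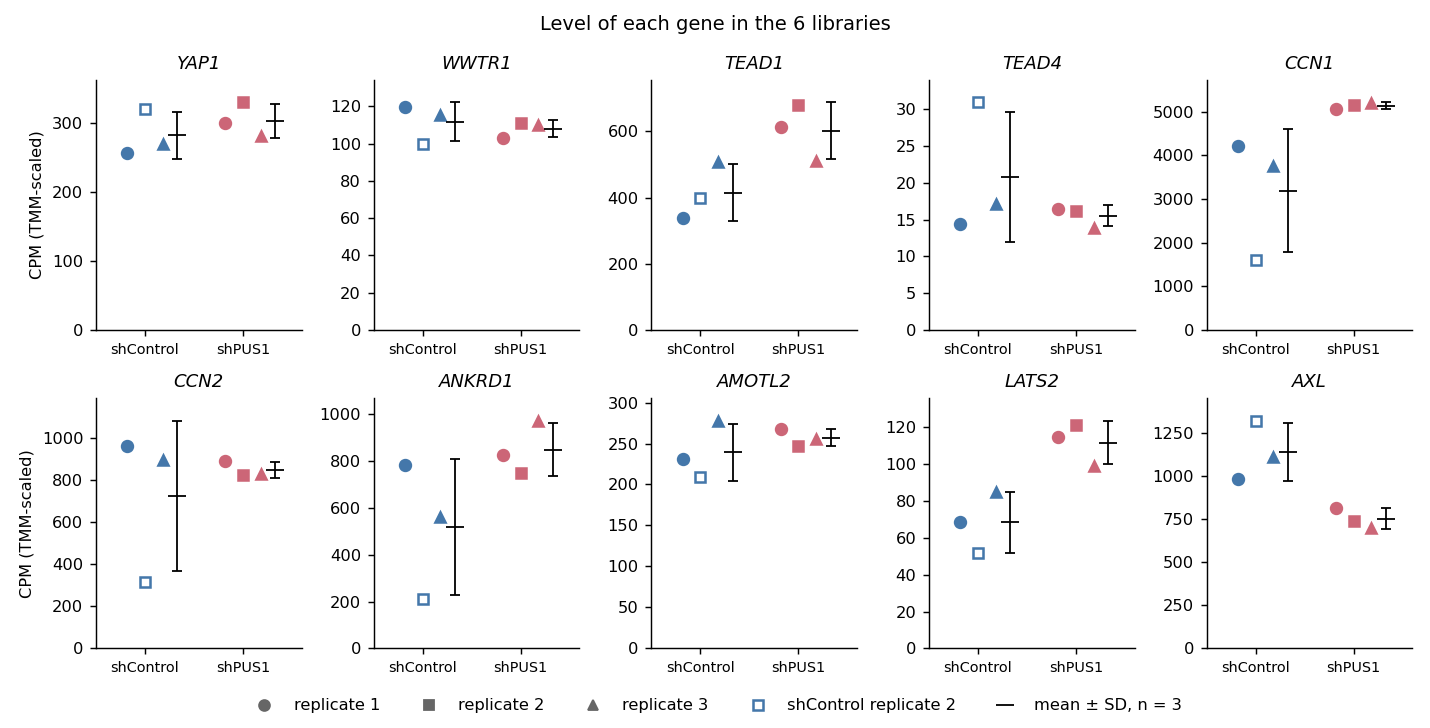
Levels of the 10 genes in CPM (linear axes from 0), with shControl libraries in blue and shPUS1 libraries in red. Marker shapes give the replicate number, the open square is shControl replicate 2, and the black marks are mean ± SD with n = 3. LATS2, TEAD1 and CCN1 were higher in every shPUS1 library than in any shControl library and AXL was lower, while CCN1, CCN2 and ANKRD1 were lowest in shControl replicate 2.

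None of the 10 genes passed an adjusted p of 0.05 with edgeR, where 2.58% of all genes tested did (380 genes, of which 256 were higher and 124 lower). By the unadjusted p 3 passed, namely LATS2 and TEAD1 higher and AXL lower, where 25.5% of all genes did. DESeq2, run on the same counts, called 2 of them, LATS2 higher and AXL lower, where it called 13.7% of the 13602 genes to which it gave an adjusted p. With shControl replicate 2 left out, edgeR called 3, CCN1 and LATS2 higher and AXL lower, where it called 18.6% of all genes tested. The shPUS1 and shControl libraries did not overlap for 3 genes that were higher in shPUS1 (TEAD1, CCN1 and LATS2) and for AXL, which was lower. Over all genes tested, 18.8% did not overlap with shPUS1 higher and 17.3% with shPUS1 lower. The median log2 fold change of the 10 genes was 0.17, against -0.03 over all genes tested, with 7 above 0.

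Neither coactivator passed the test. YAP1 (ENSG00000137693, chromosome 11, 102110447 to 102233424, plus strand) stood at 257, 322 and 270 CPM in shControl and at 300.2, 330 and 281 CPM in shPUS1. The groups overlapped, and the log2 fold change was 0.10 (95% interval -0.20 to 0.41, edgeR adjusted p = 0.65), or 0.20 (-0.02 to 0.42, adjusted p = 0.186) without shControl replicate 2. WWTR1 (ENSG00000018408, chromosome 3, 149517235 to 149736714, minus strand) stood at 120, 100 and 115 CPM in shControl and at 103, 111 and 110 CPM in shPUS1. The shControl libraries held both its highest and its lowest value. Its log2 fold change was -0.05 (95% interval -0.33 to 0.23, edgeR adjusted p = 0.824), or -0.13 (-0.33 to 0.08, adjusted p = 0.342) without shControl replicate 2. For both genes the interval left out a change of 1 on the log2 scale in either direction. Part of the exons of each lies opposite an antisense gene (AP000942.2 for YAP1, WWTR1-AS1 for WWTR1), and the sources used here do not say whether reads were counted by strand. Per length, WWTR1 was 0.352, 0.235 and 0.323 times the level of YAP1 in shControl and 0.259, 0.254 and 0.296 times in shPUS1. That ratio differed by -0.15 on the log2 scale (exact two-sided permutation test, p = 0.5), where 3 against 3 libraries cannot give a p below 0.1, and by -0.33 without shControl replicate 2.

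Neither TEAD factor passed the test with an adjusted p under 0.05. TEAD1 (ENSG00000187079, chromosome 11, 12674421 to 12944737, plus strand), the more abundant of the pair, stood at 338, 399 and 507 CPM in shControl and at 614, 681 and 512 CPM in shPUS1. The groups were kept apart by shControl replicate 3 and shPUS1 replicate 3, which nearly met, and in FPKM these met the other way round (48.9 and 47.5). Its log2 fold change was 0.54 (SE 0.18, 95% interval 0.12 to 0.96, edgeR adjusted p = 0.122), a ratio of 1.45. The value was 0.51 without shControl replicate 2 (adjusted p = 0.0807). TEAD4 (ENSG00000197905, chromosome 12, 2959330 to 3040676, plus strand) stood at 14.4, 30.9 and 17.1 CPM in shControl and at 16.5, 16.2 and 13.9 CPM in shPUS1, from 221 to 591 estimated counts a library. It was highest in shControl replicate 2, and the other 5 libraries lay together. Its log2 fold change was -0.42 (95% interval -1.08 to 0.23, edgeR adjusted p = 0.375), and it came to -0.02 (-0.33 to 0.28, adjusted p = 0.913) with that library left out. Per length, TEAD1 was 4.97, 2.74 and 6.31 times the level of TEAD4 in shControl and 7.91, 8.92 and 7.83 times in shPUS1. The ratio was higher in every shPUS1 library, by 0.89 on the log2 scale (exact two-sided permutation test, p = 0.1, the smallest it can give), and by 0.55 without shControl replicate 2.

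CCN1 and CCN2 encode secreted matricellular proteins that bind integrins, and both are widely used readouts of YAP1. CCN1 (ENSG00000142871, chromosome 1, 85580761 to 85584589, plus strand) stood at 4224, 1596 and 3752 CPM in shControl and at 5058, 5152 and 5200 CPM in shPUS1. All shPUS1 libraries lay above all shControl libraries, and shControl replicate 2 lay far below the rest. The log2 fold change was 0.69 (SE 0.31, 95% interval -0.04 to 1.41, edgeR adjusted p = 0.217). Leaving out shControl replicate 2 lowered it to 0.36 (SE 0.08, 95% interval 0.17 to 0.55), which then passed the test (edgeR adjusted p = 0.0210), a ratio of 1.28. CCN2 (ENSG00000118523, chromosome 6, 131948176 to 131951372, minus strand) stood at 965, 317 and 898 CPM in shControl and at 893, 827 and 831 CPM in shPUS1. The shControl group held its highest and its lowest value. The log2 fold change was 0.23 (95% interval -0.60 to 1.06, edgeR adjusted p = 0.716), and with shControl replicate 2 left out it turned to -0.14 (95% interval -0.34 to 0.06, adjusted p = 0.293). Without that library, CCN1 was thus higher and CCN2 not called, with CCN2 between 827 and 893 CPM in shPUS1 against 898 and 965 CPM in shControl. The difference between the changes of the genes was not tested. The antisense gene AL133346.1 overlaps an exon of CCN2.

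ANKRD1 (ENSG00000148677, chromosome 10, 90912096 to 90921087, minus strand), a nuclear ankyrin repeat protein also found in the sarcomere of muscle, had the widest interval of the 10 genes. It stood at 783, 211 and 563 CPM in shControl and at 827, 748 and 971 CPM in shPUS1. Only shControl replicate 1 lay among the shPUS1 libraries. The log2 fold change was 0.71 (SE 0.40, 95% interval -0.22 to 1.64, edgeR adjusted p = 0.3002). It came to 0.33 (95% interval -0.04 to 0.69, adjusted p = 0.184) with shControl replicate 2 left out.

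Of the feedback genes, LATS2 lay apart between the groups and AMOTL2 overlapped. LATS2 (ENSG00000150457, chromosome 13, 20973036 to 21061586, minus strand), a kinase that phosphorylates YAP1 and TAZ, stood at 68.4, 51.8 and 84.8 CPM in shControl and at 115, 121 and 98.6 CPM in shPUS1. Every shPUS1 library lay above every shControl library. The log2 fold change was 0.71 (SE 0.19, 95% interval 0.27 to 1.15), a ratio of 1.63, with an adjusted p of 0.0816 by edgeR and 0.0139 by DESeq2. With shControl replicate 2 left out it was 0.53 (95% interval 0.24 to 0.83, edgeR adjusted p = 0.0246). AMOTL2 (ENSG00000114019, chromosome 3, 134355347 to 134375479, minus strand), a scaffold of the angiomotin family that binds YAP1 at junctions, stood at 230.9, 209 and 277 CPM in shControl and at 268, 248 and 256 CPM in shPUS1. The pseudogene RPL39P5 overlaps an exon of AMOTL2 on the same strand. The log2 fold change of AMOTL2 was 0.10 (95% interval -0.21 to 0.42, edgeR adjusted p = 0.652), or 0.01 (-0.23 to 0.25, adjusted p = 0.955) without shControl replicate 2.

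AXL (ENSG00000167601, chromosome 19, 41219223 to 41261766, plus strand), a receptor tyrosine kinase for the ligand GAS6, was the one readout gene that was lower in each shPUS1 library. It stood at 983, 1319 and 1112 CPM in shControl and at 817, 741 and 699 CPM in shPUS1. The groups did not overlap, and shControl replicate 2 held the highest value. The log2 fold change was -0.60 (SE 0.14, 95% interval -0.92 to -0.27), a ratio of 0.661, with an adjusted p of 0.0623 by edgeR and 0.00578 by DESeq2. With shControl replicate 2 left out it was -0.48 (95% interval -0.71 to -0.26, edgeR adjusted p = 0.0140). The antisense gene AC011510.1 overlaps an exon of AXL. In single-gene tests of log2 CPM, TEAD1, CCN1, LATS2 and AXL each reached p = 0.1, the smallest the exact permutation test can give, and ANKRD1 gave p = 0.2.

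**Figure D2:**
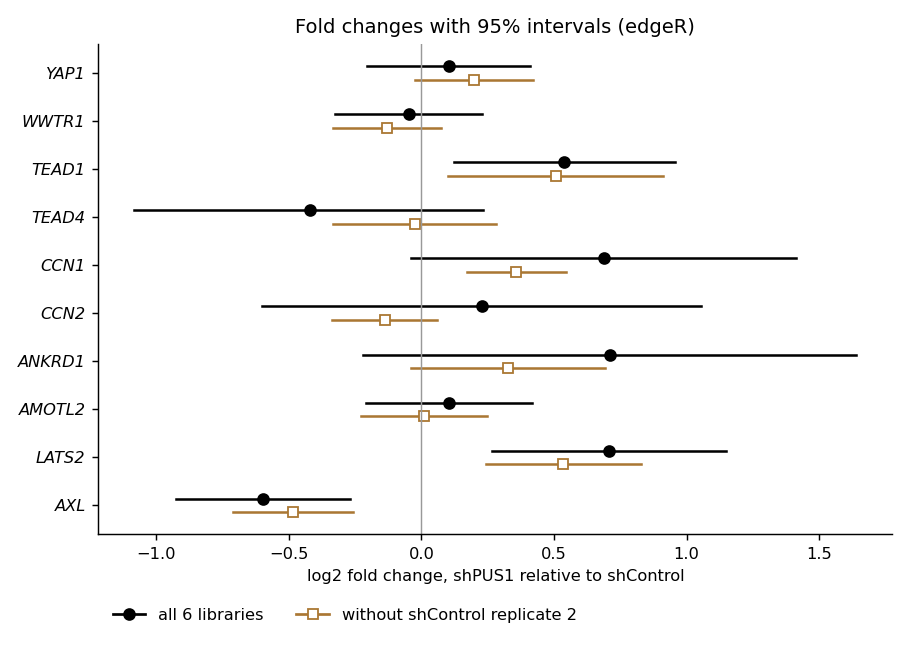
Log2 fold change of each gene in shPUS1 relative to shControl with its 95% interval from edgeR. Black circles use all 6 libraries and brown open squares leave out shControl replicate 2. The intervals of TEAD1, LATS2 and AXL lay off 0 in both, and that of CCN1 only without shControl replicate 2. The interval of every gene was narrower without that library.

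The spread within shControl was uneven over the genes. Relative to the mean log2 CPM of shControl replicates 1 and 3, shControl replicate 2 differed by -1.66 for ANKRD1, -1.55 for CCN2 and -1.32 for CCN1, so that it held 0.317, 0.341 and 0.401 times their level. It differed by -0.56 for LATS2, -0.28 for AMOTL2, -0.23 for WWTR1 and -0.05 for TEAD1. For YAP1, AXL and TEAD4 it was higher, by 0.29, 0.33 and 0.97. It was the lowest of the 6 libraries for 6 of the genes and the highest for 2, where it was lowest for 32.1% and highest for 34.4% of all genes tested. A level at least 1 log2 unit below the other shControl libraries was found in 3 of the 10 genes and in 1675 genes in all, 11.4% of those tested. The coefficient of variation of CCN1 was 43.9% in shControl and 1.41% in shPUS1, that of CCN2 49.0% and 4.32%, and that of ANKRD1 55.7% and 13.3%. For TEAD4 it was 42.6% and 9.16%, for LATS2 24.2% and 10.5%, and for WWTR1, the lowest in shControl, 9.28% and 4.18%. The coefficient of variation was larger in shControl than in shPUS1 for each of the 10 genes.

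**Figure D3:**
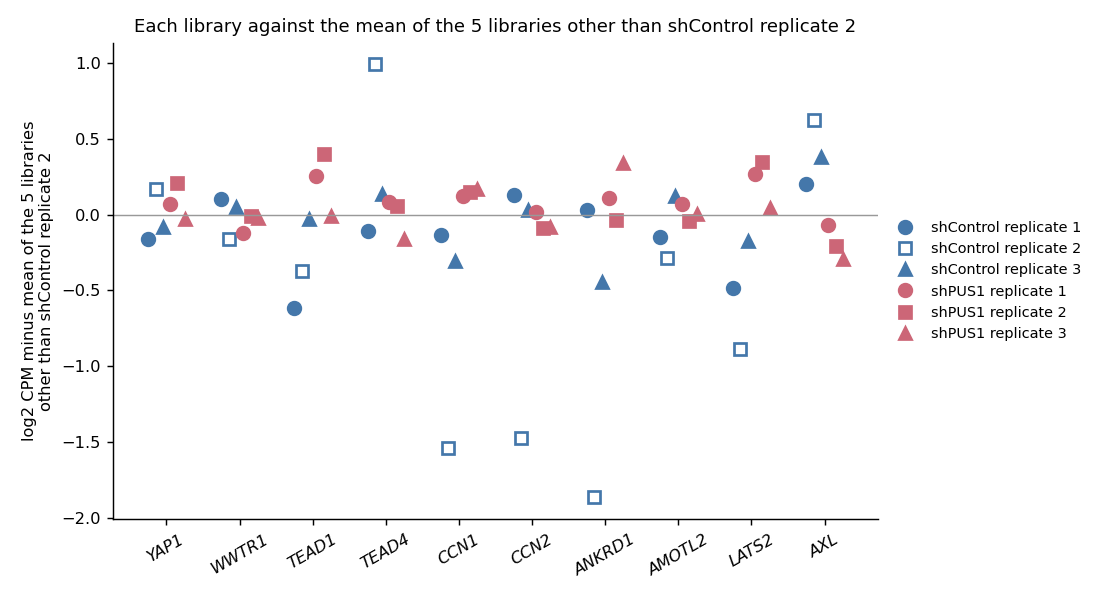
Log2 CPM of each library minus the mean of the 5 libraries other than shControl replicate 2, for each gene. Filled blue and red marks are the other shControl and shPUS1 libraries, and the open blue squares, which are shControl replicate 2, lay more than 1 unit below 0 for CCN1, CCN2 and ANKRD1 and highest for TEAD4 and AXL.

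Profiles over the 6 libraries were compared by Pearson's r of log2 CPM. The comparison covered 10522 protein-coding genes with a mean of at least 5 CPM, with the 10 genes described here left out. The genes most like CCN2 were CCNG2 (r = 0.9989), KLF9 (r = 0.9982) and DUSP1 (r = 0.998). Each was low in shControl replicate 2, DUSP1 for example with 270.4, 32.9 and 253 CPM in shControl and 239, 233 and 209 CPM in shPUS1. Those most like CCN1 were ZNF267 (r = 0.9999), AMN1 (r = 0.999) and OTUD1 (r = 0.9989). OTUD1 stood at 87.1, 21.5 and 72.3 CPM in shControl and at 114, 118 and 109.8 CPM in shPUS1. The 6 points of each r include shControl replicate 2, which was the lowest library for all of these genes.

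The rest of the pathway was taken from lists written from general knowledge. Of 25 upstream genes of the Hippo pathway, 23 were tested and 1, FRMD6, was called higher and none lower. FRMD6, a FERM protein that recruits upstream regulators to the membrane, stood at 397, 332 and 397 CPM in shControl and at 593, 624 and 564 CPM in shPUS1 (log2 fold change 0.66, SE 0.12, edgeR adjusted p = 0.0420). The call was lost without shControl replicate 1 or any single shPUS1 library (adjusted p up to 0.252), where those fits called 0 to 11 genes in all. The value was 0.57 without shControl replicate 2 (adjusted p = 0.00504). By the unadjusted p 5 were higher and 1 lower, where 25.5% of all genes passed, which is about the same share. Between groups 7 did not overlap with shPUS1 higher and 1 with shPUS1 lower, where 18.8% and 17.3% of all genes did. The median log2 fold change was 0.18, and 2.58% of all genes were called. The other 4 higher genes were the scaffold SAV1 (log2 fold change 0.48), NF2, which encodes Merlin (0.46, edgeR adjusted p = 0.129, or 0.45 with 0.0478 without shControl replicate 2), WWC2 (0.49) and RASSF1 (0.40), and the lower one was the kinase MAP4K4 (-0.40). Apart from FRMD6 and NF2 these were named after their values were seen. AMOT and DCHS1 did not pass the filter on low counts.

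Of 6 other TEAD genes and VGLL cofactors, 4 were tested and 0 were called by edgeR, with 2 higher by the unadjusted p and a median log2 fold change of 0.35, where 25.5% of all genes passed by the unadjusted p. VGLL4, which competes with YAP1 for TEAD factors, stood at 26.4, 28.2 and 27.8 CPM in shControl and at 41.0, 38.4 and 40.0 CPM in shPUS1. The groups lay well apart, with a log2 fold change of 0.53 (SE 0.12, edgeR adjusted p = 0.0585), or 0.55 without shControl replicate 2 (adjusted p = 0.00830). VGLL3, of the same family, stood at 54.0, 29.8 and 75.9 CPM in shControl and at 95.4, 116 and 87.3 CPM in shPUS1 (log2 fold change 0.90, edgeR adjusted p = 0.125), and was called without shControl replicate 2 (0.61, adjusted p = 0.0376). DESeq2 called 2 of the list higher, where it called 13.7% of the 13602 genes to which it gave an adjusted p. Without shControl replicate 2, edgeR called 18.6% of all genes tested. VGLL1 and VGLL2 were listed at 0 FPKM in all libraries. TEAD3 and TEAD2 are added after their values were seen. TEAD3 stood at 21.6, 12.9 and 23.8 FPKM in shControl and at 22.9, 20.7 and 20.7 FPKM in shPUS1 (log2 fold change 0.17, edgeR adjusted p = 0.622). Per length it lay above TEAD4 in every library but shControl replicate 2. TEAD2 lay at 2.12 to 2.90 FPKM (-0.10, edgeR adjusted p = 0.784).

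Of 16 further genes listed as targets of YAP1 and TEAD, all 16 were tested, 2 were called higher and 1 lower, where 2.58% of all genes were called, and the median log2 fold change was 0.20. By the unadjusted p also 2 were higher and 1 lower, where 25.5% of all genes passed. TGFB2, a ligand of the TGF-beta family, stood at 160, 86.5 and 181 CPM in shControl and at 346, 359 and 347 CPM in shPUS1 (log2 fold change 1.30, SE 0.25, edgeR adjusted p = 0.0460). MYOF, a membrane repair protein of the ferlin family, stood at 386, 449 and 517 CPM in shControl and at 879, 890 and 748 CPM in shPUS1 (log2 fold change 0.90, SE 0.15, edgeR adjusted p = 0.0341). IGFBP3, which binds insulin-like growth factors, stood at 99.4, 76.4 and 85.6 CPM in shControl and at 51.2, 49.5 and 54.8 CPM in shPUS1 (log2 fold change -0.75, SE 0.14, edgeR adjusted p = 0.0418). The calls were lost without shControl replicate 1 or any single shPUS1 library (adjusted p up to 0.222 for MYOF, 0.244 for TGFB2 and 0.252 for IGFBP3), where those fits called 0 to 11 genes in all. That of IGFBP3 was also lost without shControl replicate 3 (0.0515), where 474 genes were called. In each of these genes the groups did not overlap, and 3 genes of the list were higher and 3 lower without overlap, close to the 18.8% and 17.3% of all genes. Without shControl replicate 2 the log2 fold changes were 1.03 for TGFB2, 0.89 for MYOF and -0.84 for IGFBP3 (edgeR adjusted p = 0.000636, 0.00531 and 0.00234).

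Serum response factor with its MRTF coactivators reads actin tension alongside YAP1, so its targets were set beside them. Of 15 genes 14 were tested, 2 were called higher and none lower (2.58% of all genes were called), 6 were higher without overlap and none lower (18.8% and 17.3% of all genes), and the median log2 fold change was 0.29. By the unadjusted p 5 were higher and none lower, where 25.5% of all genes passed. TAGLN, an actin-binding protein of smooth muscle, stood at 13.1, 6.65 and 16.0 CPM in shControl and at 55.9, 61.5 and 64.9 CPM in shPUS1 (log2 fold change 2.35, SE 0.30, edgeR adjusted p = 0.0215). MYL9, a regulatory light chain of myosin, stood at 89.6, 85.4 and 91.2 CPM in shControl and at 156, 151 and 179.6 CPM in shPUS1 (log2 fold change 0.87, SE 0.12, edgeR adjusted p = 0.0248). Both calls were lost without shControl replicate 1 or any single shPUS1 library (adjusted p up to 0.178 for TAGLN and 0.184 for MYL9), where those fits called 0 to 11 genes in all. Without shControl replicate 2 the log2 fold changes were 2.05 and 0.84 (edgeR adjusted p = 0.00026 and 0.0026). For SRF itself the log2 fold change was -0.03 (edgeR adjusted p = 0.889).

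**Figure D4:**
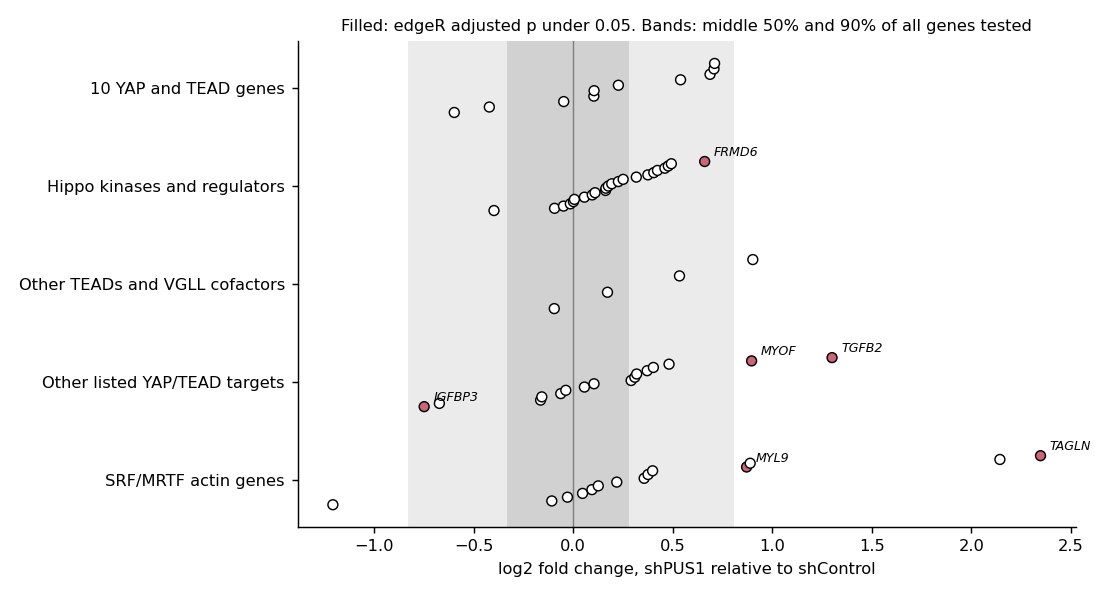
Log2 fold change in shPUS1 relative to shControl for the 10 genes and for the tested genes of 4 lists, 1 point a gene. Filled points passed an edgeR adjusted p of 0.05 and are named, and the dark and light bands hold the middle 50% and 90% of all genes tested. None of the 10 genes was filled, and all 10 lay within the light band, while of the filled points MYOF, TGFB2, MYL9 and TAGLN lay above it.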

How the data were processed

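Poly(A)-selected RNA of 6 cultures was sequenced, aligned with HISAT2 and counted with HTSeq 0.6.1 per the submitters' processing notes. Strandedness, genome build and annotation are not given in the sources used here. The table deposited by the authors holds estimated counts per gene and FPKM values that the authors made from them. Of the estimated counts above 0, 29.8% to 31.8% a library are not whole, and how these arose from read counting was not examined. Counts were rounded, filtered by filterByExpr, TMM-scaled and fitted in edgeR 4.0.16 (R 4.3.3, quasi-likelihood test, prior count 2). The p-values were adjusted by the Benjamini-Hochberg method over 14748 genes and called under 0.05. Intervals are from the fit without prior count. DESeq2 1.42.0 and limma 3.58.1 gave alternatives. Permutation tests used numpy 2.4.6 in Python 3.11.15. Coordinates are those of the deposited table on GRCh38 chromosomes, where 74.7% of 58337 genes shared with GENCODE release 29 have the same start and end. Of the 10 genes only 1, WWTR1, has the same start and end in both. The exon overlaps and the bases left out of the printed stretches rest on release 29. The lowest estimated count of the 10 genes in a library was 221, and the biological coefficient of variation over all genes was 0.22.

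The 10 genes and the lists were chosen with earlier results of these data known. Named genes were the 10, PUS1, up to 4 called genes of each list (or the 2 with the smallest p) and the 3 most like CCN1 and CCN2. Libraries that share a replicate number were not paired, with residual correlations of -0.05, -0.03 and -0.19. Alternatives were scaling, filter, tool, pseudocount, replicate block and each library left out.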

Additional observations from a re-analysis of the deposited data

How the results depend on the processing

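Over 15 alternatives, 136 of 150 fold changes of the 10 genes kept their direction and side of the threshold, 11 passed it and 3 changed sign. Both log2 ratios kept theirs in 14 of 14. WWTR1 changed sign without shControl replicate 1 (0.0038), and CCN2 with voom sample weights (-0.042) and without shControl replicate 2 (-0.14). The calls gained were TEAD1 (0.63) and CCN1 (0.41) with voom, LATS2 with DESeq2 (0.71), voom (0.64) and no filter (0.71), and AXL with DESeq2 (-0.59), voom (-0.43) and no filter (-0.59). Without shControl replicate 2 they were CCN1 (0.36), LATS2 (0.53) and AXL (-0.48). Leaving out each library gave -0.13 to 0.0038 for WWTR1, 0.36 to 0.94 for CCN1, -0.14 to 0.49 for CCN2, 0.53 to 0.88 for LATS2 and -0.69 to -0.48 for AXL. Members called higher thus came to 1 with DESeq2, 3 with voom and 1 with no filter, and lower to 1 with each. Over all genes, DESeq2 called 13.7% of those it gave an adjusted p, and voom called 3090 of 14748. The fit with no filter called 1284 of a larger set, and edgeR without shControl replicate 2 called 18.6%. The counts of the lists below stand beside the same calls over all genes. Leaving out each library gave 0 to 2 higher and 0 to 1 lower. Upstream Hippo genes called higher were 0 with library totals, the replicate block or FPKM + 0.1, 7 with voom and 0 to 3 leaving out a library. TEAD partners called higher were 2 with DESeq2 or voom, 1 with no filter and 0 to 2 leaving out a library. Further targets called higher were 1 with library totals, FPKM + 1 or FPKM + 0.1, 4 with voom, 0 with the replicate block and 0 to 2 leaving out a library, and lower 0 with the block and 0 to 1 leaving out a library. Actin genes called higher were 4 with voom, 1 with the replicate block and 0 to 4 leaving out a library, and lower 1 with voom and 0 to 1 leaving out a library. The replicate block called 0 of the 10 genes. Over all genes, the 380 calls became 1870 with DESeq2, 3090 with voom, 1284 with no filter, 18 with the replicate block and 0 to 2813 leaving out a library. Of 150 fold changes of the other named genes, 42 lost their call, 9 gained one and none changed sign. Apart from left-out libraries, calls were lost with the replicate block for PUS1, FRMD6, MYOF, TGFB2, IGFBP3 and MYL9, with library totals for FRMD6 and TGFB2, with FPKM + 1 for PUS1 and TGFB2 and with FPKM + 0.1 for these and FRMD6. The causes were not tested. The intervals of YAP1, WWTR1, TEAD4, CCN1, CCN2, ANKRD1 and AMOTL2 held 0 with all libraries.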

Other observations

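Of the listed genes outside the rule for names, a few are given as values only, chosen after these were seen. EGR1, an immediate early transcription factor, stood at 6.01, 1.49 and 6.69 FPKM in shControl and at 6.01, 6.59 and 5.27 FPKM in shPUS1. GADD45A, a stress gene, stood at 64.6, 24.9 and 52.1 FPKM in shControl and at 61.5, 63.2 and 68.4 FPKM in shPUS1. Both were lowest in shControl replicate 2, as were 32.1% of all genes tested, and neither passed the edgeR test (adjusted p = 0.623 and 0.328). CNN1, calponin, was at 0.85, 0.05 and 0.69 FPKM in shControl and at 2.30, 2.29 and 2.51 FPKM in shPUS1 (edgeR log2 fold change 2.14, SE 0.66, adjusted p = 0.0981). ACTA2, smooth muscle actin, was at 1.24, 0.03 and 0.80 FPKM in shControl and at 0.16, 0.29 and 0.33 FPKM in shPUS1, with groups that overlapped (edgeR log2 fold change -1.21, SE 0.90, adjusted p = 0.384).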
